A study of Mus musculus with 80 samples.

Results

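Liver RNA taken at CT12 from mice whose food had been removed at CT10 was compared with liver RNA from mice fed ad libitum and killed at the same time, so the fast had lasted 2 h. The comparison holds 8 of the 80 libraries of the series, 4 titled fasted CT12 and 4 titled control CT12, and they were chosen by title. Each group had 2 males and 2 females of the C57BL/6J strain, aged 8 to 12 weeks, kept in groups of 4 on standard chow under a light-dark cycle for 10 days and released into constant darkness on day 11. CT, circadian time, counts hours in that darkness, with CT12 as the usual start of activity and feeding in a nocturnal animal. Control and fasted mice shared the strain, the housing, the darkness and the free access to water. Each library was made from polyadenylated RNA of about 40 mg of the left liver lobe. The labels do not say which mice shared a cage, so the p-values take no account of cages. They rest on the spread between livers of the same treatment, time and sex, estimated over all 80 libraries.

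The liver changes from storing to releasing fuel when food is withheld. Insulin, high after a meal, drives fatty acid synthesis through the transcription factor SREBP-1 and keeps FOXO factors out of the nucleus. Glucagon acts through cAMP and CREB on genes of glucose production, fatty acids released from fat tissue activate PPAR-alpha, and glucocorticoids act beside both. The comparison asks which transcripts had already moved 2 h after food removal.

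The 8 libraries held between 29365503 and 45710407 counts. Xist, the RNA that silences an X chromosome in females, was between 1099 and 1409 CPM (counts scaled to library size) in the libraries titled female and at most 2.05 CPM in those titled male, and Ddx3y, a gene of the Y chromosome, was between 69.9 and 79.8 CPM in males and at most 0.127 CPM in females, so the sex in the titles fitted in 8 of 8. The treatment field of the sample records gives control for all 8 libraries, and the field that holds the sex gives 1 sex for each group, so the titles and the column names of the count table were followed. Rn18s-rs5, a gene of ribosomal RNA, took 1.40% of control CT12 female 2 and between 0.0738% and 0.101% of the other 7. Of the log2 profiles, fasted males correlated with each other at 0.978 and with control males at 0.9799 to 0.986, and fasted females with each other at 0.979 and with control females at 0.971 to 0.981. Hepatocyte markers summed to between 102900 and 132700 CPM in fasted and between 96040 and 105900 CPM in control livers, led by the albumin gene Alb. No member of the 12 marker lists, of cell types and of replication-dependent histone genes, was called by edgeR. At an unadjusted p under 0.05 (edgeR), 1 of 10 hepatocyte, 4 of 10 endothelial and 1 of 2 adipocyte markers tested were higher. On the lower side were 2 of 8 bile duct markers. Over all 21187 genes tested, 2886 had such a p. In bulk liver RNA, fewer cells of a type and less RNA per cell cannot be told apart.

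At CT12, 340 of 21187 genes tested differed between fasted and control livers, which is 1.6% of all genes (edgeR's quasi-likelihood test over all 80 libraries, adjusted p under 0.05). Of these, 195 were higher (0.92%) and 145 were lower (0.684%) in fasted livers. Counts of list and family members called at CT12, given below, are to be read beside these shares of all genes. A log2 difference here is fasted minus control, averaged over both sexes, and CPM are scaled by the TMM method. Without any adjustment, 2886 genes had a p under 0.05. The median size of the 340 differences was 0.65 on the log2 scale, and 98 reached a 2-fold change, 73 upwards and 25 downwards. The fasted and control values did not overlap in 236 of the 340, against 5.96% of all genes (3.11% higher and 2.85% lower in fasted livers), and the direction was the same in both sexes in 339. The 340 were chosen by these same values, through the mean of both sexes, which favours both counts. Agreement of direction between the sexes over all genes was not counted. The count moved with single livers: it was 117 without fasted male 2, 93 without fasted female 2, 108 and 166 without control male 1 and 2, and 120 and 154 without control female 1 and 2, while it was 287 and 389 without fasted male 1 and fasted female 1. Among the 56 genes called at CT12 that met the rule for named genes, 16 were called whichever of the 8 livers was left out: Angptl8, Mid1ip1, Srebf1, Pnpla3, Mvd, Pck1, Irs2, Crtc2, Cyp4a32, Fbf1, Ctcflos, Gm63271, Gm65936, Sgsm1, Tuba1c and Utp14b. The rest of the 56 lost their call in between 1 and 8 of those fits.

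A large fall, alike in both sexes, belonged to the angiopoietin-like gene Angptl8, whose secreted product is made after feeding and restrains lipoprotein lipase in muscle and other oxidative tissues. Its level was 7.98, 9.501, 5.61 and 9.21 CPM in fasted livers and 62.1, 79.2, 65.6 and 62.0 CPM in control livers, in the order male 1, male 2, female 1 and female 2 that is kept throughout. The groups were far apart and the sexes alike, with log2 differences of -3.02 in males and -3.11 in females. The fitted log2 difference was -3.06 ± 0.47 (SE, adjusted p = 0.000113), and it lay between -3.26 and -2.90 whichever liver was left out. Angptl8 was the sole called member among 24 genes for secreted factors of the fasting liver.

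Genes of fatty acid and triglyceride synthesis that follow SREBP-1 were the list with the most falls. Of 24 measured, 9 were lower, none was higher and 15 did not pass, and the list's median log2 difference was -0.88 against -0.00066 over all genes tested. Its median was -0.18 in males and -1.36 in females. Mid1ip1, whose protein polymerises and activates acetyl-CoA carboxylase, had a p-value among the smallest of the comparison. It measured 35.3, 44.03, 26.5 and 29.5 CPM in fasted and 78.4, 85.9, 189 and 143 CPM in control livers. All 4 fasted values were below the lowest control value (log2 difference -1.81 ± 0.23, adjusted p = 2.85e-06). Srebf1, which encodes SREBP-1 itself, measured 279, 333, 265 and 228 CPM in fasted and 687, 433, 1158 and 844 CPM in control livers. These groups did not overlap either, and the highest values were those of the control females (-1.45 ± 0.27, adjusted p = 0.00203).

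Downstream enzymes of the same list mostly fell more in females, but the test of the sex difference, given below, called no gene. Fasn, the fatty acid synthase, measured 1158, 1143, 2197 and 764 CPM in fasted livers and 2086, 1688, 10740 and 5387 CPM in control livers. Control females were far above control males, and fasted female 1 lay above both control males, so the groups overlapped with the sexes pooled (-1.58 ± 0.37, adjusted p = 0.0139). Within each sex the fasted values were below the control values. The log2 difference of Fasn was -0.71 in males and -2.44 in females, and the call was lost in 5 of the 8 fits without a liver, with an adjusted p of up to 0.183. Elovl6, which elongates palmitate, fell by 1.48 on the log2 scale, and Acaca, acetyl-CoA carboxylase, fell by 0.88. Gpam, the acyltransferase that opens glycerolipid synthesis, fell by 0.88 with control female 1 at 1250 CPM against 291 to 524 CPM in the other control livers, and without that liver its difference was -0.50 (adjusted p = 0.465). The call of Gpam was lost in 7 of the 8 fits without a liver. Aacs, which turns acetoacetate into a precursor of lipids, fell by 1.78, with fasted male 1 at 218 CPM inside the control range. Pnpla3, a lipid droplet enzyme induced by SREBP-1, measured 0.288, 0.573, 2.84 and 0.991 CPM in fasted and 1.47, 1.43, 61.2 and 29.8 CPM in control livers (-3.17 ± 0.58, adjusted p = 0.00135). Its control females stood more than an order of magnitude above its control males. Insig1, described below, was the ninth called member. Acly, the ATP citrate lyase, had a log2 difference of -1.005 that did not pass (adjusted p = 0.0992), and Scd1, the stearoyl-CoA desaturase, had -0.40 (adjusted p = 0.809). Leaving out 1 liver gave between 3 members lower, without control female 1, and 9.

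**Figure D1:**
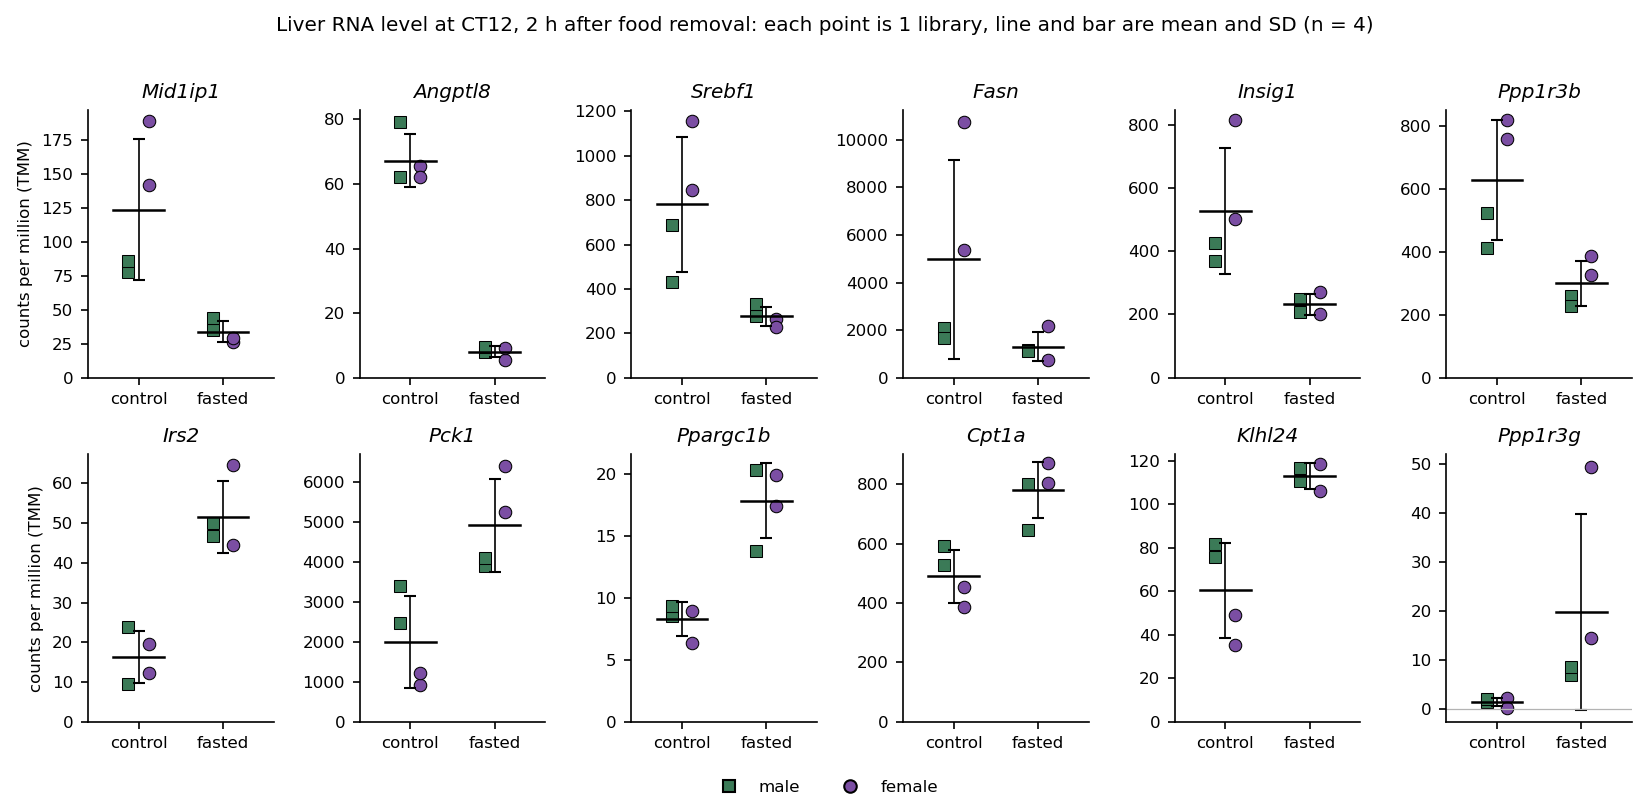
RNA level of 12 genes in CPM (vertical axes, from 0) in the 4 control and 4 fasted CT12 livers, with squares for males, circles for females, and mean and SD in black. Angptl8 sits at 5.61 to 9.501 CPM in fasted and 62.0 to 79.2 CPM in control livers, whereas Fasn is split by sex among the controls.

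Of 25 SREBP-2 targets in cholesterol synthesis, 3 were lower, none was higher and 22 did not pass, with a median log2 difference of -0.26 (-0.24 in males and -0.38 in females). Mvd, the mevalonate diphosphate decarboxylase, measured 4.53, 10.0, 11.3 and 8.45 CPM in fasted and 15.8, 12.5, 69.2 and 39.8 CPM in control livers. No fasted liver reached the lowest control (-1.71 ± 0.33, adjusted p = 0.00236). Sqle, the squalene epoxidase, had a log2 difference of -0.57 that did not pass (adjusted p = 0.48). Without control female 1 a single member was called. At CT16, in other mice, 20 of the 25 were lower, against 11.9% of all genes.

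Insig1 and Insig2 encode the INSIG proteins, which hold SREBP precursors in the endoplasmic reticulum. Insig1, itself an SREBP target, measured 208, 248, 203 and 271 CPM in fasted and 427, 367, 814 and 502 CPM in control livers, with no overlap (-1.14 ± 0.23, adjusted p = 0.00454). Insig2, the form that insulin represses in liver, measured 49.8, 94.8, 162 and 142 CPM in fasted and 57.03, 54.1, 54.1 and 75.5 CPM in control livers. Fasted male 1 lay below all 4 control livers and the other 3 fasted livers above it (0.81 ± 0.21, adjusted p = 0.0363, lost in 7 of the 8 fits without a liver and up to 0.361).

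Among 22 genes of insulin signalling and FOXO targets, 2 were higher, none was lower and 20 did not pass, with a median log2 difference of 0.17. Irs2, the insulin receptor adaptor that FOXO and CREB induce in fasting liver, measured 46.7, 50.1, 44.5 and 64.5 CPM in fasted and 23.95, 9.52, 19.6 and 12.3 CPM in control livers. The lowest fasted liver was well above the highest control, in males (log2 difference 1.53) as in females (1.77), and the fit gave 1.65 ± 0.27 (adjusted p = 0.000325). The other called member was Insig2. Igfbp1, a secreted binding protein of insulin-like growth factors, measured 81.4, 89.7, 245 and 816 CPM in fasted and 74.5, 16.6, 30.9 and 21.0 CPM in control livers. Its groups did not overlap, but the spread within them was wide and the difference of 2.63 ± 0.84 did not pass (adjusted p = 0.0962).

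Of 20 genes of gluconeogenesis and glucose output, 3 were higher, none was lower and 17 did not pass, with a median of 0.14. Pck1, the cytosolic phosphoenolpyruvate carboxykinase that commits carbon to glucose, measured 3892, 4110, 5236 and 6410 CPM in fasted and 3408, 2473, 923 and 1221 CPM in control livers. All fasted livers were above all control livers (1.44 ± 0.25, adjusted p = 0.000685), with the log2 difference at 0.44 in males and 2.44 in females. Crtc2, the CREB coactivator that glucagon signalling releases into the nucleus, rose by a small and even 0.45 ± 0.08 (adjusted p = 0.0014), from between 26.8 and 38.0 CPM to between 43.0 and 47.5 CPM. Ppargc1b, a coactivator of mitochondrial genes, measured 13.8, 20.3, 17.4 and 19.9 CPM in fasted and 8.51, 9.37, 8.97 and 6.35 CPM in control livers, again with no overlap (1.10 ± 0.22, adjusted p = 0.00413). The better known Ppargc1a had 10.8, 17.1, 32.6 and 57.5 CPM in fasted and 11.0 to 16.2 CPM in control livers, so the fasted males lay near the controls (1.01 ± 0.34, adjusted p = 0.13). G6pc1, the glucose-6-phosphatase that releases glucose, had a difference of 0.92 ± 0.29 (adjusted p = 0.088).

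The promoters of 8 called genes that rose or fell, chosen after their values were seen, are given to show what the searched motifs look like in them and where none is found. RefSeq promoter windows run from 250 bases before to 50 after the start of transcription, and at least 1 was found for 248 of the 340 genes called. They are on build GRCm38.p6, whereas the labels name GRCm39 for the counts. Windows are for Pck1 chr2:173152823-173153122 (plus strand), Irs2 chr8:11008880-11009179 (minus strand), Ppp1r3g chr13:35967656-35967955 (plus strand), Insig1 chr5:28071162-28071461 (plus strand), Pnpla3 chr15:84167566-84167865 (plus strand), Angptl8 chr9:21835260-21835559 (plus strand), Mid1ip1 chrX:10717115-10717414 (plus strand) and Gadd45g chr13:51846425-51846724 (plus strand). Capitals mark TGACG, the core of the cAMP response element, in Pck1, Ppp1r3g and Insig1 (read on the opposite strand as CGTCA in Pck1 and Insig1), the E-box CACGTG in Irs2, Insig1 and Gadd45g, the full element TGACGTCA in Pnpla3, which holds the core on both strands, and the glucocorticoid receptor site AGAACA on the opposite strand in Mid1ip1. The Angptl8 window held none of the motifs searched. Each is written 5' to 3' on the strand of the gene.
Pck1: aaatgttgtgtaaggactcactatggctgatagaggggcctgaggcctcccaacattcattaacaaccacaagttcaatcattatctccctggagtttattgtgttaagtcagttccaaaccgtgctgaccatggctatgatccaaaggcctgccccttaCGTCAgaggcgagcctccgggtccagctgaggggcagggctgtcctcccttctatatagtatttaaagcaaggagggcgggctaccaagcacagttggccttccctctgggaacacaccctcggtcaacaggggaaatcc
Irs2: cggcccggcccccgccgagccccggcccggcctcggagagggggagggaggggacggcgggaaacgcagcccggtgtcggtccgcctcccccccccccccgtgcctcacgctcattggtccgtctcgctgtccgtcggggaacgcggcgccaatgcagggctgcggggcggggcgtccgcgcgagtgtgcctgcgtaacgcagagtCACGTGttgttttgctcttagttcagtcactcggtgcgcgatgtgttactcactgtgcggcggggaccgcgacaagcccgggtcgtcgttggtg
Ppp1r3g: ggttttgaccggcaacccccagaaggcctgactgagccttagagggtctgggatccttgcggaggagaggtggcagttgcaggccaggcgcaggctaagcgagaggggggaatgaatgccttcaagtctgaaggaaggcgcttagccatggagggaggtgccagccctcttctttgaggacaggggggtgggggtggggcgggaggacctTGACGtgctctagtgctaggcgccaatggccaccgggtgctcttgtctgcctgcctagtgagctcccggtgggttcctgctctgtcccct
Insig1: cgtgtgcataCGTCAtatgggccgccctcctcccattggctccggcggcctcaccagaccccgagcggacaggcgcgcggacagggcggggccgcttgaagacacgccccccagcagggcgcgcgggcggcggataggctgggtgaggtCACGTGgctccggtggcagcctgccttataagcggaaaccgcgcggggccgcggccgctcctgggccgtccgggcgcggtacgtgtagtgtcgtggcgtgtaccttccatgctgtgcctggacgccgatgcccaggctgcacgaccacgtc
Pnpla3: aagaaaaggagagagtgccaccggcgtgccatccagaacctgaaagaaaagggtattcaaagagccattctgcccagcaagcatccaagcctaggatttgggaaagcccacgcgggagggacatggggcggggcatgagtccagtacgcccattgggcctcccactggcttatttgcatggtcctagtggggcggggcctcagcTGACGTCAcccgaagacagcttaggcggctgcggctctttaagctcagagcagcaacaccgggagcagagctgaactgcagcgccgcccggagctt
Angptl8: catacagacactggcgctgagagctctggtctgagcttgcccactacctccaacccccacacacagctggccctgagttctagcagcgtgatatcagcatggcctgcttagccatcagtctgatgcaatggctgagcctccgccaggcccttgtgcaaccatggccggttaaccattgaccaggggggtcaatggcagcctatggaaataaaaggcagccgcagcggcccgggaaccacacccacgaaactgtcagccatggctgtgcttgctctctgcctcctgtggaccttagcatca
Mid1ip1: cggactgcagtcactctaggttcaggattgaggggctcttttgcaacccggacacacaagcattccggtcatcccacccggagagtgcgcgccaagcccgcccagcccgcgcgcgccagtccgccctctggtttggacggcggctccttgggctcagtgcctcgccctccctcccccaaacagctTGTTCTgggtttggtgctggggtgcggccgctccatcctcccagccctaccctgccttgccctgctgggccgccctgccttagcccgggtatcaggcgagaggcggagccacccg
Gadd45g: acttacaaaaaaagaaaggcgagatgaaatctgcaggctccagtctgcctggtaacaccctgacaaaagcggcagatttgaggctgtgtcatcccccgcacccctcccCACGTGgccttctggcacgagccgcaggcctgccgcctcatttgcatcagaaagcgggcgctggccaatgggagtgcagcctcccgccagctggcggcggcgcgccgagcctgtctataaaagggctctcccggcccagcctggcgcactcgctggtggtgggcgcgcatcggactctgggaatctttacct

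The core TGACG began 90 bases before the start of Pck1 and 40 before that of Ppp1r3g, and the full element began 46 bases before the start of Pnpla3, a gene that fell. Counting both strands, the core was in 20.8% of all 32851 promoters in the table, in 27.9% of those of the genes tested, in 32.1% of the 168 promoters of genes higher at CT12 and in 39.8% of the 128 of genes lower. In the same order of sets (all promoters, genes tested, genes higher, genes lower), the E-box was in 7.15%, 9.10%, 13.1% and 8.59%, and the FOXO site GTAAACA in 3.65%, 3.01%, 6.55% and 3.12%. The sterol response element core TCACCCCA was in 1.56%, 1.58%, 2.38% and 4.69%, and the glucocorticoid receptor site AGAACA in 19.0%, 13.9%, 12.5% and 7.03%. The full cAMP element was in 1.79%, 2.59%, 2.98% and 3.12%, and the heat shock element GAANNTTC in 7.86%, 6.05%, 6.55% and 2.34%. These are letter matches in short windows and no binding was measured.

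Of 17 genes of glycogen metabolism measured, 1 was higher, 1 was lower and 15 did not pass, with a median of -0.03. Ppp1r3g, a subunit that targets protein phosphatase 1 to glycogen, measured 6.91, 8.73, 14.5 and 49.6 CPM in fasted and 1.45, 2.09, 2.20 and 0.234 CPM in control livers. Every fasted liver was above every control liver, and fasted female 2 was far above the rest (3.42 ± 0.87, adjusted p = 0.028). Ppp1r3b, the main hepatic subunit of that kind, measured 260, 228, 388 and 327 CPM in fasted and 414, 523, 819 and 760 CPM in control livers. The groups were apart in each sex and in all (-1.04 ± 0.29, adjusted p = 0.0467). These calls were lost in 6 and 8 of the 8 fits without a liver, with adjusted p up to 0.192 and 0.239.

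Among 21 genes of pyruvate dehydrogenase control and glucose use, 1 was higher, 1 was lower and 19 did not pass, with a median of -0.39. Pdp2, a phosphatase that switches pyruvate dehydrogenase on, rose from between 40.1 and 44.7 CPM to between 51.0 and 95.2 CPM (0.67 ± 0.18, adjusted p = 0.0366), and Pgd, an enzyme of the pentose phosphate pathway that yields NADPH, fell by 0.65 (adjusted p = 0.0139). Pdk4, the kinase that switches the same complex off in long fasts, measured 2.25, 6.10, 26.0 and 20.9 CPM in fasted and 3.08 to 9.07 CPM in control livers. Fasted male 1 lay below the control range, fasted male 2 within it and the fasted females above it, without a call (0.85 ± 0.52, adjusted p = 0.505). Txnip, which limits glucose uptake, was 96.6 to 239 CPM in fasted and 56.6 to 80.8 CPM in control livers with no overlap, and it did not pass (1.15 ± 0.38, adjusted p = 0.114).

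Targets of PPAR-alpha were mostly on the higher side. Of 43 measured, 7 were higher, none was lower and 36 did not pass, 39 had a difference above 0, and the median was 0.46. Cpt1a, which admits long-chain fatty acids to mitochondria, measured 646, 800, 803 and 872 CPM in fasted and 529, 591, 387 and 454 CPM in control livers. The groups did not overlap (0.68 ± 0.16, adjusted p = 0.0124). Cyp4a32, a fatty acid omega-hydroxylase, measured 37.2, 75.0, 67.6 and 62.6 CPM in fasted and 27.5, 30.2, 6.28 and 9.23 CPM in control livers (2.01 ± 0.29, adjusted p = 4.16e-05). It was higher in every fasted liver, and Cyp4a10 rose by 1.34 (adjusted p = 0.0244). Cyp4a10, Cyp4a31 and Cyp4a32 are near-identical neighbours between which reads can be split, so their separate values are uncertain.

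Pnpla2, the adipose triglyceride lipase that starts the breakdown of stored fat, measured 137, 122, 146 and 133 CPM in fasted and 90.6, 93.4, 60.3 and 62.2 CPM in control livers, with no overlap (0.84 ± 0.19, adjusted p = 0.0139). Plin4 and Plin5, droplet coat proteins, rose by 1.45 (adjusted p = 0.0318) and 0.82 (adjusted p = 0.0354). Creb3l3, a transcription factor of the fasting liver, rose by 0.44 (adjusted p = 0.0178). Of the adipocyte markers 2 of 6 were detected enough to test: Adipoq was at 0 to 0.612 CPM in fasted and 0 to 0.0499 CPM in control livers, and Cfd at 0 to 1.31 CPM and 0 to 0.25 CPM. Leaving out 1 liver left between 1 member of the PPAR-alpha list called, without control female 1, and 6. Angptl4, a lipase inhibitor made in fasting, was 112 to 239 CPM in fasted and 33.6 to 79.0 CPM in control livers without passing (1.41 ± 0.44, adjusted p = 0.084). Fgf21, the fasting hepatokine, was at 0.314 to 2.13 CPM in fasted and 0.20 to 0.909 CPM in control livers (1.67 ± 0.82, adjusted p = 0.364). Of 9 genes of ketone synthesis and export, Cpt1a alone was called.

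**Figure D2:**
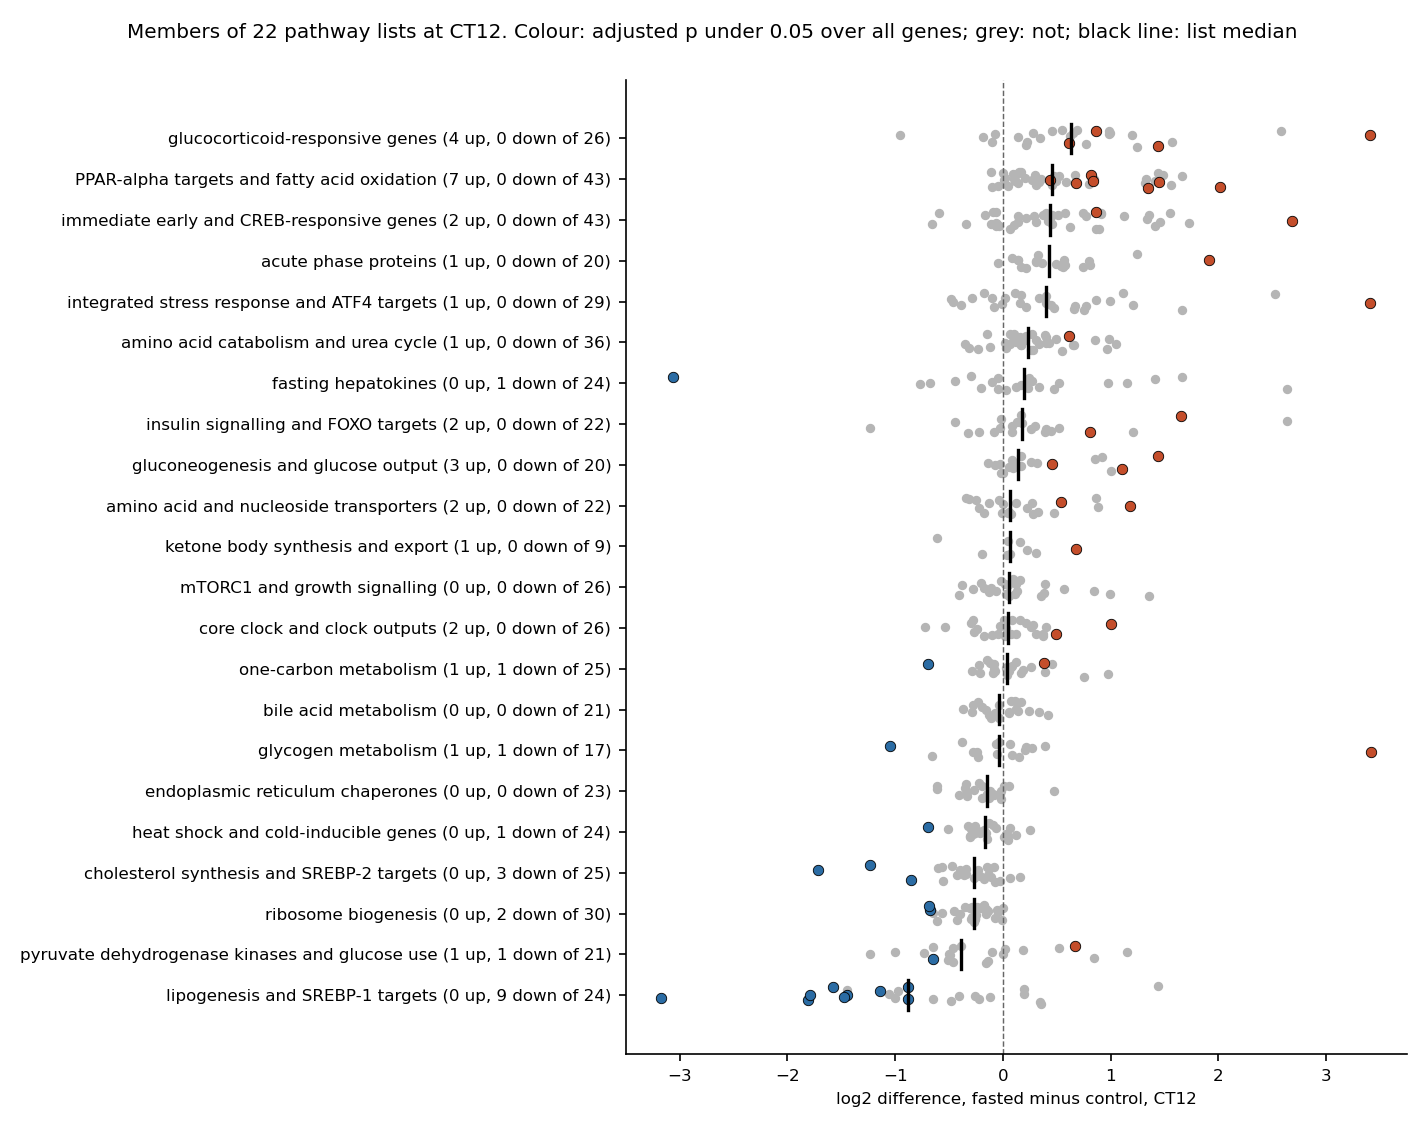
Log2 difference between fasted and control livers at CT12 (horizontal axis) for every measured member of 22 pathway lists, with called members in colour, others in grey and the list median as a black line. The lipogenic list has its median at -0.88 with 9 of 24 members called lower, and the PPAR-alpha list has its median at 0.46 with 7 of 43 called higher.

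Immediate early and CREB-responsive genes had 2 of 43 members higher, none lower, 41 that did not pass and a median of 0.43. Gadd45g, a growth arrest gene, measured 79.6, 57.9, 53.5 and 83.3 CPM in fasted and 21.2, 38.2, 2.50 and 5.16 CPM in control livers. All fasted livers were above all controls and the control females were lowest (2.68 ± 0.71, adjusted p = 0.0349, lost in 7 of the 8 fits without a liver and up to 0.196). Klf9, a transcription factor that glucocorticoids induce, rose by 0.86 (adjusted p = 0.00819), with fasted male 2 at 139 CPM inside the control range.

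Of 26 glucocorticoid-responsive genes, 4 were higher, none was lower and 22 did not pass, with a median of 0.64 that was -0.0075 in males and 1.31 in females, and without control male 1 or control female 1 a single member was called. The 4 were Pck1, Klf9, Mt2 and Tdo2, a liver enzyme that opens tryptophan breakdown and rose by 0.62 (adjusted p = 0.0384). Mt2, a zinc-binding metallothionein, measured 4.53, 7.38, 156 and 518 CPM in fasted and 3.74, 2.88, 5.202 and 5.58 CPM in control livers. Fasted females were far above all other livers and fasted males were near the controls (3.40 ± 0.87, adjusted p = 0.028, up to 0.18 without fasted female 2). Mt2 was the 1 called gene of 29 in the integrated stress response, and Il1rn, the interleukin-1 receptor antagonist, the 1 of 20 acute phase genes. Of the 29, 21 had a difference above 0, with a median of 0.40 (0.04 in males and 0.32 in females). Of the 20, 19 had a difference above 0, with a median of 0.43 (0.09 in males and 0.63 in females). Il1rn measured 0.707, 2.73, 9.63 and 11.9 CPM in fasted and 0.449, 1.11, 1.76 and 1.45 CPM in control livers, with fasted male 1 inside the control range (1.92 ± 0.39, adjusted p = 0.00416). The granulocyte markers summed to between 1.89 and 9.67 CPM in fasted and between 2.60 and 4.82 CPM in control livers, and their part in Il1rn was not tested.

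Of 26 clock genes, 2 were higher, none was lower and 24 did not pass, with a median of 0.05. Rora, an activator acting on the same sites as the REV-ERB repressors, rose by 0.49 (adjusted p = 0.0423), and Nfil3, a repressor in clock outputs, rose by 1.01 (adjusted p = 0.00966). For Nfil3, fasted female 1 at 14.3 CPM was inside the control range of 6.98 to 18.6 CPM. The control means of Nfil3 were 8.90 CPM in females and 16.2 CPM in males. Without fasted female 2 the difference of Nfil3 was 0.56 (adjusted p = 0.364), and no clock gene was called without that liver, control female 1 or control male 2. Per1, which acute signals induce, was at 54.2 to 107 CPM in fasted and 60.0 to 94.0 CPM in control livers and did not pass (0.21 ± 0.33, adjusted p = 0.866).

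Amino acid and methyl group genes had few calls. Among 36 genes of amino acid breakdown and the urea cycle, Tdo2 alone was called, and among 22 transporters, Slc38a4 for neutral amino acids rose by 0.54 (adjusted p = 0.0107) and Slc7a2 for cationic ones by 1.18 (adjusted p = 0.0264), each without overlap between the groups. Of 25 genes of 1-carbon metabolism, 1 was higher, 1 was lower and 23 did not pass. Ahcy, which clears S-adenosylhomocysteine, measured 1547, 1475, 1345 and 1847 CPM in fasted and 1371, 1274, 932 and 1218 CPM in control livers (0.38 ± 0.11, adjusted p = 0.0467). Fasted female 1 was just inside the control range of both sexes, though above the control females. Amd1, which draws S-adenosylmethionine into polyamines, fell by 0.69 (adjusted p = 0.00802) with fasted male 1 at 37.1 CPM inside the control range. Mat1a, the liver's S-adenosylmethionine synthase, was at 3250 to 8326 CPM in fasted and 2874 to 4689 CPM in control livers and did not pass (0.39 ± 0.17, adjusted p = 0.271).

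Of 30 ribosome biogenesis genes, 2 were lower, none was higher and 28 did not pass, 29 lay below 0, and the median was -0.26. At CT8, with food still present in both groups, the list's median was -0.32 and 2 members were lower, where 1.33% of all genes were called. At CT12 the 2 were Bysl, an assembly factor of the small subunit, which fell by 0.68 (adjusted p = 0.00642), and Nolc1, a nucleolar chaperone, which fell by 0.67 (adjusted p = 0.0265), and neither was called without fasted female 2 or without fasted male 2. Nolc1 had also been lower at CT8, by 0.80 on the log2 scale (adjusted p = 0.0113), when both groups still had food. Bag3, a co-chaperone, fell by 0.70 (adjusted p = 0.0366) as the 1 called gene of 24 heat shock and cold-inducible genes. No gene was called among 23 endoplasmic reticulum chaperones, 21 bile acid genes and 26 genes of mTORC1 and growth signalling, where 3, 2 and 6 had an unadjusted p under 0.05. Over all 21187 genes tested, 2886 had such a p.

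Over all called genes the largest log2 difference was 6.02 in size. Outside the lists above, the largest rises among genes with a mean log2 CPM of at least 1 included Fbf1, a protein of the base of cilia. Fbf1 measured 21.5, 79.4, 114 and 171 CPM in fasted and 17.6, 11.7, 9.35 and 7.89 CPM in control livers (2.91 ± 0.47, adjusted p = 0.000257). All fasted values were higher, with fasted male 1 nearest the controls. Ctcflos, an antisense RNA of Ctcfl, lies 19844 bases from Pck1 in the GRCm38 annotation and rose by 1.58 (adjusted p = 0.000312). It measured 47.5, 51.6, 44.8 and 63.2 CPM in fasted and 32.7, 29.8, 9.35 and 9.85 CPM in control livers, again apart. Gm43189, a sense intronic RNA, rose by 1.67 (adjusted p = 0.0485), and reads of its host gene may be counted in it. Nlrp12, an innate immune sensor, rose by 1.65 (adjusted p = 0.025), and the RNAs Gm2814, Gm57436, Gm63271, Gm65936 and ENSMUSG00000123342, with no role assigned here, rose by between 1.69 and 2.31. Gm63271 was the steadiest of them, at 3.82 to 4.43 CPM in fasted and 0.746 to 1.80 CPM in control livers (adjusted p = 4.73e-05). Among the falls, Sgsm1, a regulator of small GTPases, fell by 1.30, Hdhd3, a hydrolase-like gene, by 1.18, and Utp14b, a retrogene within Acsl3 on the same strand, by 1.09. Tuba1c, an alpha-tubulin, measured 22.8, 31.8, 17.8 and 22.4 CPM in fasted and 44.4, 37.3, 78.8 and 70.4 CPM in control livers without overlap (-1.24 ± 0.20, adjusted p = 0.000217).

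Beside Mid1ip1, the smallest p-values of the comparison included those of the next 4 genes, which were picked after their values were seen. Klhl24, an adaptor of a ubiquitin ligase, measured 117, 111, 106 and 119 CPM in fasted and 75.6, 81.8, 49.2 and 35.3 CPM in control livers. The 4 fasted livers were within a narrow band above every control (0.97 ± 0.12, adjusted p = 2.85e-06), with a difference of 0.53 in males and 1.41 in females. Brap, a BRCA1-binding ubiquitin ligase of the Ras pathway, rose by 0.74 ± 0.09 (adjusted p = 2.85e-06), Tcp11l2 by 1.19 ± 0.17 (adjusted p = 4.16e-05) and Slc8b1, the mitochondrial sodium-calcium exchanger, by 1.16 ± 0.17 (adjusted p = 4.31e-05), all without overlap.

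The size of the changes was read in each sex from 2 livers against 2. Over the 340 genes the difference was larger in females for 316 (92.9%), against 60.0% of all genes tested. The 340 were chosen by these same values, so this count is no test of a sex difference. The 195 genes that rose had a median of 0.46 in males and 1.04 in females, and the 145 that fell had -0.35 and -0.70. Taken alone, females gave 455 called genes (2.15%) and males gave none (0%), with 835 at an unadjusted p under 0.05. A test of the difference itself called no gene: 1004 genes had an unadjusted p under 0.05, and DESeq2 called 1. Among the smallest p-values in that test were those of E230001N04Rik, Atosb, Gm63297 and Prf1, each at an adjusted p of 0.48. Atosb had 23.0, 18.9, 23.96 and 22.1 CPM in fasted and 22.8, 21.95, 14.0 and 11.3 CPM in control livers, with the control females lowest, and the other 3 were below 2 CPM in all 8 livers. The Kupffer cell and macrophage markers summed to between 353 and 717 CPM in fasted and between 387 and 616 CPM in control livers.

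**Figure D3:**
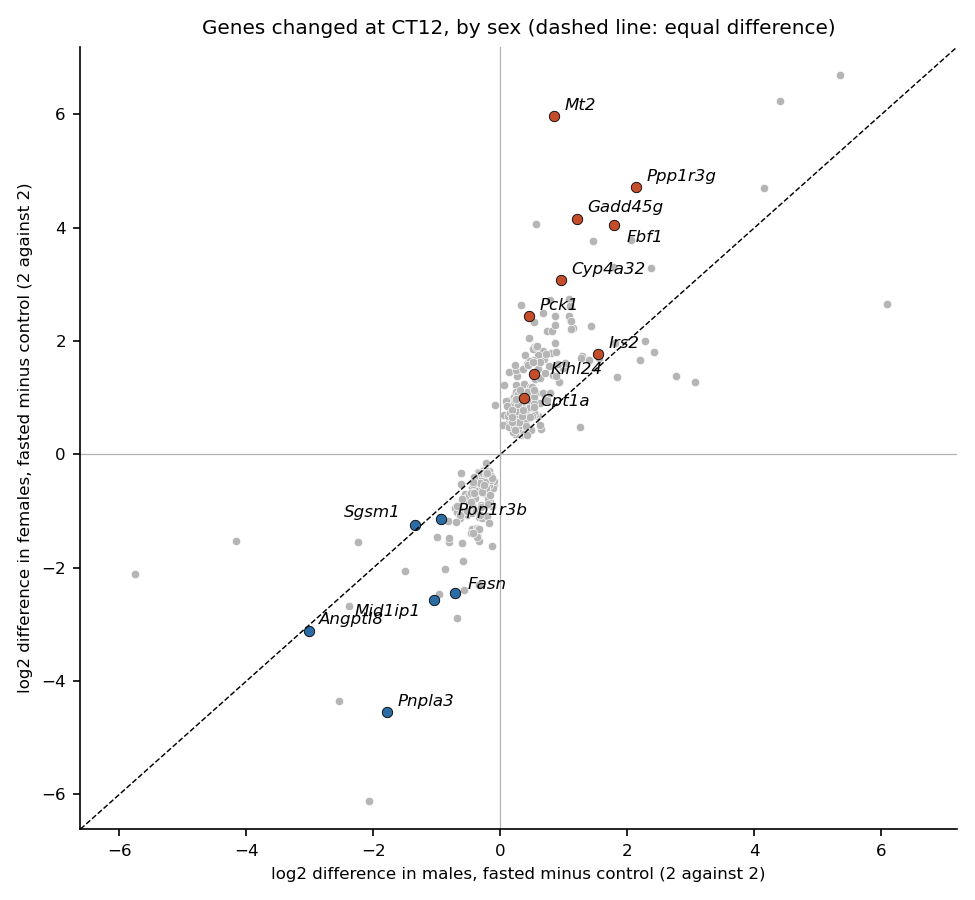
Log2 difference between fasted and control livers in females (vertical axis, 2 against 2) against males (horizontal axis, 2 against 2) for the 340 genes called at CT12, with named genes in colour and a dashed line of equal difference. Angptl8 and Irs2 lie near that line, Mt2, Pck1 and Fasn far on the female side, and 316 of the 340 genes are larger in females.

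At CT8, 2 h before food removal and in other mice, the same design gave 282 called genes (1.33%), of which 257 were lower. The livers titled fasted and control thus already differed while both groups had food. Of 12 B and T lymphocyte markers, 4 were lower at CT8 and none was higher. How the CT8 count changes without 1 liver was not tested. Of the 340 genes called at CT12, 15 were called in their CT12 direction at CT8, none in the other, and 271 had that sign, with medians of 0.23 for those that rose and -0.12 for those that fell. The share of all genes with the same sign at CT8 and CT12 was not counted. A test of the change in the difference from CT8 to CT12 called 4 genes (0.0189%), all of them lower at CT12 relative to CT8. These were Angptl8 (-3.17), Insig1 (-1.67), Rassf6, a gene of the Hippo pathway (-1.15), and the small nuclear RNA gene Gm22935, which lies within Fdps (-4.03), each at an adjusted p of 0.0415. None was called when control CT8 female 2 was left out (adjusted p of 0.0927 for Insig1), while their differences stayed between -4.34 and -1.07. The next smallest p belonged to 4833420G17Rik, whose log2 difference was 0.06 at CT8 and 0.65 at CT12 (adjusted p = 0.0514 for the change).

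At CT16, in other mice, the fast had lasted 4 h more and 23.4% of all genes were called. Of the 340 genes, 289 were called there in the same direction and none in the opposite one, and 225 had a larger difference at CT16. The median of those that rose went from 0.73 to 1.03 and that of those that fell from -0.53 to -0.60. Most named genes without a call at CT12 had one at CT16: Pdk4 at 3.35, Fgf21 at 4.63, Angptl4 at 3.09, Igfbp1 at 5.54, Txnip at 2.69, G6pc1 at 1.81, Ppargc1a at 1.85, Per1 at 1.41 and Mat1a at 0.79. By contrast Bag3 had -0.01 (adjusted p = 1), Nolc1 -0.24 (adjusted p = 0.336), Gpam -0.62 (adjusted p = 0.0569) and Ppp1r3b -0.71 (adjusted p = 0.0665) at CT16.

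Across the 8 later times, 98 of the 340 genes were called in their CT12 direction at each time, and 18 at none. In the opposite direction 36 were called at some later time, among them 15 at CT20, 12 at CT32 and 13 at CT44. The matching counts over all genes tested were not made. These counts therefore do not show that the 340 genes kept their calls more often than other genes. The share varied with the hour. It was 293 genes at CT40 (39.9% of all genes called) 263 at CT24 (24.1%) and 236 at CT20 (36.6%), but 158 at CT28 (21%) and 126 at CT32 (17.7%). Irs2 had log2 differences of 2.69 at CT16, 1.95 at CT24 and 2.22 at CT40, with -0.07 at CT32. Ppp1r3g had 7.68 at CT16, -0.97 at CT32 and 7.91 at CT40, and Ppp1r3b had 0.20 at CT32, none of the 3 CT32 values passing the test. Angptl8 stayed lower at every later time but by less at CT28 and CT32, at -1.69 and -1.59, than at CT40, at -4.49. Fasn, Srebf1 and Plin4 kept large differences at CT32, of -3.26, -2.88 and 3.75.

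**Figure D4:**
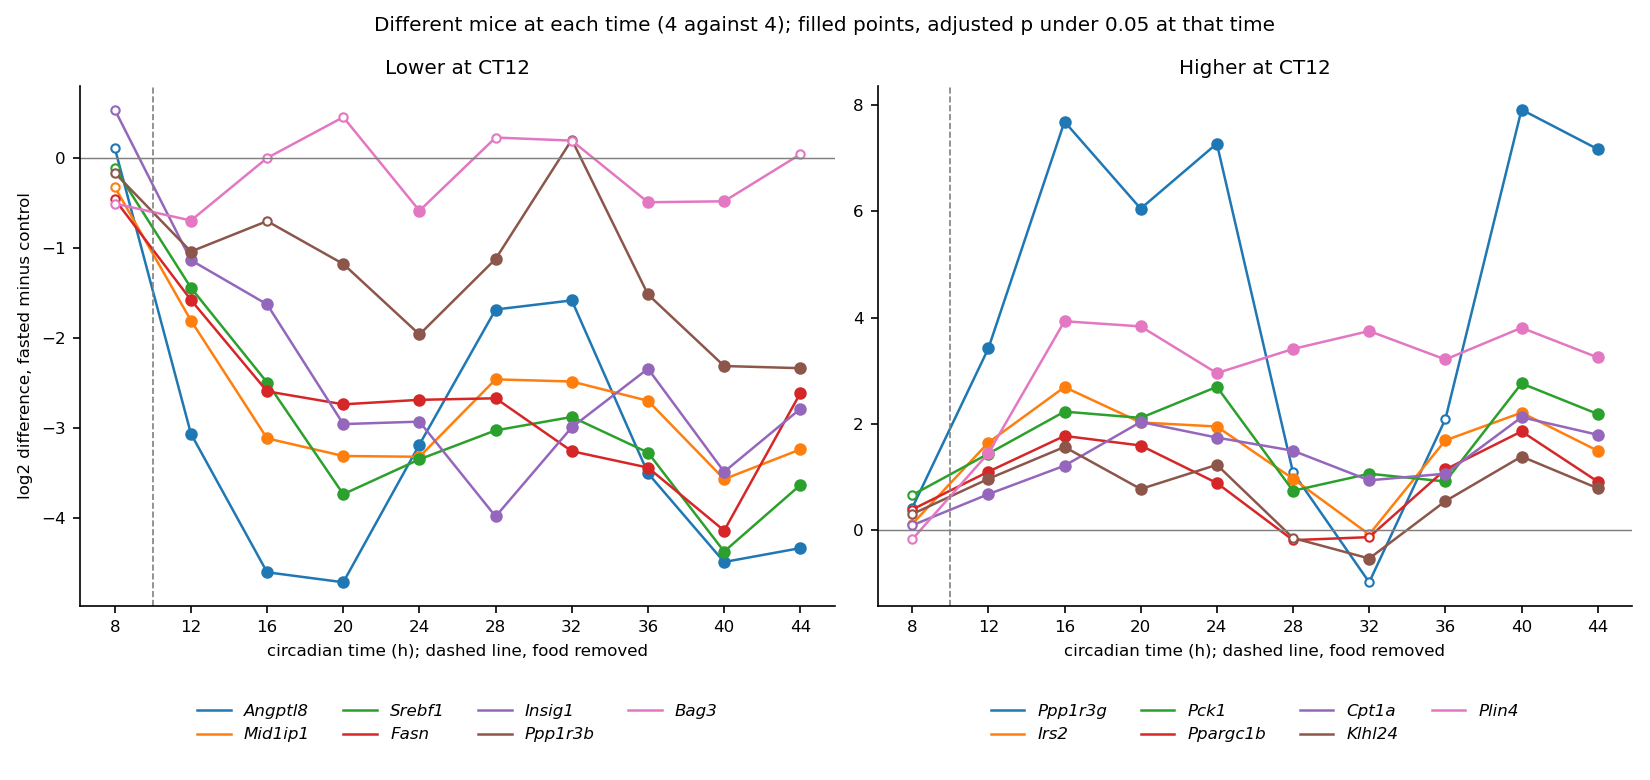
Log2 difference between fasted and control livers (vertical axis) at 10 circadian times in hours (horizontal axis) for 7 genes lower and 7 genes higher at CT12, with filled points where the adjusted p was under 0.05, a dashed line at food removal, and different mice at every time. Irs2 and Ppp1r3g return to the zero line or below it at CT32 whereas Fasn and Plin4 stay away from it.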

How the data were processed

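Liver poly(A) RNA of 80 mice was sequenced as stranded libraries with 76 cycles. Per the labels the authors trimmed reads with Trimmomatic and aligned them with HISAT2 to GRCm39, with DESeq2 also named and versions not given in the sources used here. The deposited table of raw counts per gene was used as it stood, and the normalised and exon tables were not used. Groups came from titles, since the treatment field disagreed with them. Genes with low counts were dropped (edgeR filterByExpr), which left 21187 of 78275. edgeR 4.0.16 in R 4.3.3 fitted quasi-likelihood models with TMM scaling to the 80 libraries together, each combination of treatment, time and sex having its own mean. Adjustment was by Benjamini-Hochberg across the genes tested. Alternatives used DESeq2 1.42.0, limma 3.58.1 (voom), other scalings, filters and designs, and each CT12 liver left out. The procedure was tested on simulated data. Depth was 29365503 to 45710407 counts per CT12 library. Named genes were the 15 largest called rises and falls with a mean log2 CPM of at least 1, called list members, the 5 smallest p-values for sex and for CT8 to CT12, and genes fixed by name, some of which are not reported here. The members and lists were chosen with earlier results of these data known. Replicate numbers were not used to pair livers in the main fit. Gene places and promoters are from GRCm38 annotation, since the files give no coordinates.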

Additional observations from a re-analysis of the deposited data

Results flagged for a closer look

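Among 162 groups of 4 livers, 8 had a liver far from the other 3, which is near the 1 in 20 that chance gives. Control CT12 female 2 stood apart in Rn18s-rs5, flagged both as 13590 CPM and again as 1.402% of its counts. In fasted livers Gm43189 was highest in female 1 at 7.904 CPM, and Klf9 was lowest in male 2 at 139.2 CPM. In control livers Gm43189 was lowest in male 2 at 0.8967 CPM, Ppargc1a was highest in male 2 at 16.16 CPM, Angptl4 was lowest in female 1 at 33.6 CPM, and Insig2 was highest in female 2 at 75.47 CPM.

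The difference between fasted and control livers changed from CT8 to CT12 by a tested amount (edgeR, adjusted p = 0.0415 for each) for Rassf6 (-1.151), Insig1 (-1.67), Angptl8 (-3.17) and Gm22935 (-4.029). At CT8 the 4 genes had log2 differences of 0.22, 0.53, 0.11 and 0.59 in the same order, none of them called.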

How the results depend on the processing

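The 340 genes became 106 at an adjusted p under 0.01, 192 with a change of at least 1.5 times, 1158 with no filter on low counts (271 shared), 646 with DESeq2 and 76 with no sex in the model, and 93 to 389 without 1 liver. A fit to the 8 CT12 libraries alone called 248, of which 148 were among the 340. The 289 also called at CT16 became 91, 152, 851, 531 and 71 under the same 5 changes, 437 with a mean of at least 1 CPM, and 89 to 291 without 1 liver. The count of sex differences, 0 with edgeR (1004 unadjusted), was 352 with no filter, 1 with DESeq2 and 0 to 1 without 1 liver. The count of genes whose difference changed from CT8 to CT12, 4 by edgeR, became 0 at an adjusted p under 0.01, 763 with no filter, 47 with DESeq2, 1 with limma-voom, 0 with robust dispersion, 0 without control CT8 female 2, 8 with no sex in the model and 0 to 4 without 1 liver; 2126 genes had an unadjusted p under 0.05. The causes were not tested. Of the 56 named genes called at CT12, Gm63271, Angptl8, Mid1ip1 and Pck1 were called under every alternative run. The other genes of the 340 were not followed singly through the alternatives.

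Livers of the same replicate number deviated with correlations of -0.02 in males and -0.04 in females. With 2 livers per sex and group each correlation rests on a single deviation per group, so it cannot settle whether livers were paired. With the number as a replicate block the count was 323 over 80 libraries and 56 over the 8 CT12 libraries alone, the count for CT16 was 279, that for sex 0 and that for CT8 to CT12 0.

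With 2 livers per sex and group, the males alone gave no call, and low genes such as Fgf21 rest on about 1 CPM.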

Other observations

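Gene families outside the lists were looked at after their values were seen, and support nothing beyond their values. Some had calls in both directions. Of 29 kelch-like Klhl genes, 3 were higher and 1 lower (median 0.0096). Of 29 F-box Fbxo genes, 2 were higher and 1 lower (median 0.0055). Of 6 Ppp1r3 genes, 1 was higher and 1 lower. Perilipins had 2 of 4 higher, metallothioneins 1 of 2 higher and angiopoietin-like genes 1 of 7 lower. Of 44 mitochondrial carriers of the Slc25a family, 6 were higher and none was lower at CT12: Slc25a34 (1.57), Slc25a47 (1.11), Slc25a33 (1.08), Slc25a51 (0.73), Slc25a42 (0.67) and Slc25a32 (0.61), which include carriers of pyrimidine nucleotides, NAD, coenzyme A and folate. The family's median was 0.09. Of 5 Atg8 genes, whose proteins coat autophagosomes, Map1lc3b (0.55) and Gabarapl1 (0.48) were higher. Of 14 genes of the cytochrome P450 4a and 4f groups, Cyp4f15 (0.59) and Cyp4f17 (0.56) were higher beside Cyp4a10 and Cyp4a32.

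Of 19 tubulin genes, 3 were lower and none was higher, Tuba1c (-1.24), Tubb4b (-0.84) and Tuba4a (-0.71), with a family median of -0.60, and near-identical copies may share reads. Of 8 genes of pyrimidine synthesis, 3 were lower: Ctps1 (-0.88), Cad, the enzyme of its first steps (-0.70), and Umps (-0.48).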
